A study of Mus musculus with 31 samples.

Results

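The transcripts of 10 T cell surface antigens, Cd2, Cd4, Cd5, Cd6, Cd7, Cd8a, Cd8b1, Thy1, Ptprc and Cd44, were followed through mouse models of peripheral T cell lymphoma. They were taken by symbol from all 31 gene count tables, with Ensembl identifiers mapped to symbols where a table held only these, and all 10 were found among the 48211 symbols shared by both kinds of table. The study measured polyA RNA of CD4+ T cells (19 libraries) and of whole spleen (12 libraries) from C57B/6 mice with a Vav1-Myo1f fusion allele, in normal, pre-lymphoma and tumor states. In the pre-lymphoma set, which held only CD4+ cells, 3 fusion/fusion libraries carry a genotype label with Vav1Myo1f fl/wt;CD4CreERT2 on both sides of a slash, 3 control/fusion libraries carry a label joining CD4-Cre-ERT2(WT) to that genotype, and 2 controls are CD4-Cre-ERT2(WT). The labels do not explain the slash. In the CD4-Cre set, tumor mice were CD4-CreVav1Myo1f fl/wt (4 CD4+ libraries and 3 spleens) and controls CD4-Cre(WT) (3 CD4+ libraries and 3 spleens). In the CD4-CreERT2 set, tumor mice were CD4-CreERT2Vav1Myo1f fl/wt (2 CD4+ libraries and 3 spleens) and controls CD4-CreERT2 (WT) (2 CD4+ libraries and 3 spleens). Every group label therefore names a Cre driven by Cd4, which is itself among the antigens measured. The labels do not say whether WT in the controls refers to the Cre or to the fusion locus. CD4-Cre is active from the thymus on in both CD4 and CD8 lineage cells, whereas CreERT2 acts where tamoxifen is given. Ages and tamoxifen schedules are not given in the sources used here.

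CD2, CD5, CD6 and CD7 are glycoproteins of most mature T cells. CD2 binds CD48 in the mouse and promotes adhesion, CD5 and CD6 are related scavenger receptor proteins that dampen or tune T cell receptor signals, and CD6 binds ALCAM (CD166). CD4 and the CD8 alpha and beta chains are coreceptors that bring the kinase Lck to the T cell receptor, CD4 with MHC class II and CD8 with MHC class I. THY1 is a lipid-anchored protein that marks mouse T cells, PTPRC (CD45) is the phosphatase of all white blood cells that primes Lck, and CD44 is a hyaluronan receptor that is high on activated and memory T cells. In human peripheral T cell lymphoma, pathologists use the loss of such proteins from the cell surface, CD7 and CD5 above all, as a sign of an aberrant T cell population. Counts of RNA do not show the protein on the surface, and in bulk samples fewer cells of a type and less RNA per cell cannot be told apart. The CD4+ libraries of every set were taken as CD4+ cells, so cells without CD4 on the surface may be missing from them. Levels of Cd4 in these libraries therefore do not show whether some cells had lost CD4.

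The genes lie apart in the mouse genome, except for a pair of neighbours on chromosome 19 and another on chromosome 6. In the GENCODE annotation of GRCm38, Cd5 lies at chr19:10718143-10738974 and Cd6 at chr19:10789341-10830058, both on the minus strand. Cd8b1 lies at chr6:71322788-71337494 and Cd8a at chr6:71373427-71379173, both on the plus strand. Promoter sequences of 4 of the 10 genes are in the RefSeq table for GRCm38.p6. Those of Cd5 and Cd44, whose transcripts were higher in both pre-lymphoma groups, and that of Cd8a, which did not pass the test there, are shown as the 250 bases before the start, on the strand of the gene. Capitals mark GGAAG, the core that ETS family factors recognise, or its complement CTTCC.
Cd5, chr19:10738975-10739224, minus strand: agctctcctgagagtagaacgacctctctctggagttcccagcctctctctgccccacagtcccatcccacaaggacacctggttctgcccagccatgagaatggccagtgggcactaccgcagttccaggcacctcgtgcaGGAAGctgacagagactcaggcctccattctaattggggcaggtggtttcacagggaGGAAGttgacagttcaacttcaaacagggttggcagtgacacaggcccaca
Cd44, chr2:102901666-102901915, minus strand: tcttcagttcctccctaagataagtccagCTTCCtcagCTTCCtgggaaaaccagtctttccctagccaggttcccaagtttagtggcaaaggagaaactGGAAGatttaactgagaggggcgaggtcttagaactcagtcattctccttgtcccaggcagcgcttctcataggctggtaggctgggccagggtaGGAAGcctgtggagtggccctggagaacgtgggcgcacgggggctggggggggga
Cd8a, chr6:71373177-71373426, plus strand: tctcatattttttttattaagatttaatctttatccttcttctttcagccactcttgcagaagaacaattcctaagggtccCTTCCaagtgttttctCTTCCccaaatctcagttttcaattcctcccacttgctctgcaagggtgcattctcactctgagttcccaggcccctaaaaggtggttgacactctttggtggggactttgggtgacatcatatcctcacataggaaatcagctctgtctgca
Counted on both strands, GGAAG occurred 2 times before Cd5, 4 times before Cd44 and 2 times before Cd8a, and 64.1% of the 32817 promoters in the table held at least 1 such match in the same window. CANNTG, the E-box, occurred 2 times before Cd5, 2 times before Cd8a and in no place before Cd44, against 66.2% of all promoters. GATAA, the GATA core, occurred 1 time before Cd44 and 1 time before Cd8a and was not matched before Cd5, against 22.6% of all promoters. TGTGGT, the RUNX core, was matched before none of these 3 genes and in 14.0% of all promoters. Such matches describe letters and are not evidence of binding.

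Gene counts per library ran from 12.6 M to 37.6 M (mega counts), with a median of 29.3 M. The CD4+ tumor library VM98 stood apart with 34546 genes with a count, and the tumor spleen VM294 with 18368, so results that rest on them are also given without them. The number VM645 stands on a tumor library and on control libraries of the CD4-Cre set. By counts of Xist and the Y-linked Ddx3y, control/fusion library TA020 was female and all other pre-lymphoma libraries were male. Sexes were unequal in the CD4-Cre set too. Tumor mouse VM388 and controls VM211 and VM216 were male. Tumor mice VM58, VM645 and VM98 and control VM645WT were female. In the pre-lymphoma set Myo1f was higher in fusion/fusion (143 to 180 CPM) and control/fusion libraries (150 to 172 CPM) than in controls (70.7 to 83.0 CPM), with log2 fold changes of 1.10 ± 0.11 (SE, edgeR adjusted p = 5.1e-05) and 1.05 ± 0.11 (adjusted p = 4.7e-04). Vav1 was lower in the same groups (−0.49 ± 0.06, edgeR adjusted p = 2.1e-04, and −0.23 ± 0.06, adjusted p = 0.0309). In tumor CD4+ cells Myo1f did not pass against control. Its change was −0.21 ± 0.38 in the CD4-Cre set (edgeR adjusted p = 0.846) and 0.87 ± 0.35 in the CD4-CreERT2 set (adjusted p = 0.988). Levels here are TMM-scaled CPM (counts of a gene relative to the library total), computed within a deposited set, and they are not tested between sets. CD3 complex genes summed to between 3230 and 5577 CPM in all CD4+ libraries and to between 571 and 1742 CPM in spleens. CD4+ libraries also held RNA of other cell types: 12 macrophage and monocyte markers summed to between 473 and 6981 CPM and 10 B cell markers to between 68.8 and 2993 CPM.

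Per length, Cd8a was the lowest of the antigens in the control CD4+ cells of every set. In the controls of the CD4-Cre set Cd2 led with 309 ± 30.3 CPM per kb of exons (SD, n = 3). Cd6 (183 ± 22.9) and Cd4 (180 ± 15.0) followed and did not differ beyond their spread, nor did Cd5 (125 ± 6.11) and Ptprc (124 ± 2.90). Below them came Cd44 at 49.0 ± 2.43 and Cd7 at 42.2 ± 6.88 CPM per kb, whose spreads meet, then Cd8b1 (17.6 ± 1.88) and Thy1 (17.1 ± 3.23), and Cd8a at 3.29 ± 0.417 CPM per kb. In the CD4-CreERT2 controls (n = 2) the order was Cd2 (451 CPM per kb), Cd6 (183), Cd4 (140), Cd5 (126), Ptprc (116), Cd7 (48.6), Cd44 (26.3), Cd8b1 (17.1), Thy1 (14.7) and Cd8a (3.32). In the controls of the pre-lymphoma set (n = 2) Thy1 instead stood highest with 279 CPM per kb, next to Cd4 (256), Cd2 (233), Cd5 (233), Cd6 (138), Ptprc (129), Cd7 (26.0), Cd44 (25.5), Cd8b1 (16.3) and Cd8a (3.43). These sets were scaled separately, and the difference in Thy1 between them was not tested. The ratio of Thy1 to Cd3e, which does not depend on this scaling, averaged 1.970 in the pre-lymphoma controls. It averaged 0.1395 in the CD4+ cells of CD4-Cre controls and 0.1397 in those of CD4-CreERT2 controls.

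Before lymphoma, several of the antigens that tumors often lose were higher, not lower, in fusion cells. Cd5, Cd6, Cd7 and Cd44 passed the test in both pre-lymphoma groups, and Cd2 in fusion/fusion cells alone. With edgeR's quasi-likelihood test and Benjamini-Hochberg adjustment over all 16257 genes tested, 5 of the 10 antigens were higher and 0 lower in fusion/fusion cells, where 45.7% of all genes passed, 23.8% higher and 22.0% lower. In control/fusion cells 4 were higher and 0 lower, against 20.3% of all genes, 11.6% higher and 8.70% lower. The median log2 fold change over the 10 was 0.27 in fusion/fusion cells and 0.06 in control/fusion cells, against −0.01 and 0.00 over all genes tested. Both comparisons use the same controls. In fusion/fusion cells 5 of 10 antigens is near the share of all genes that passed.

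**Figure D1:**
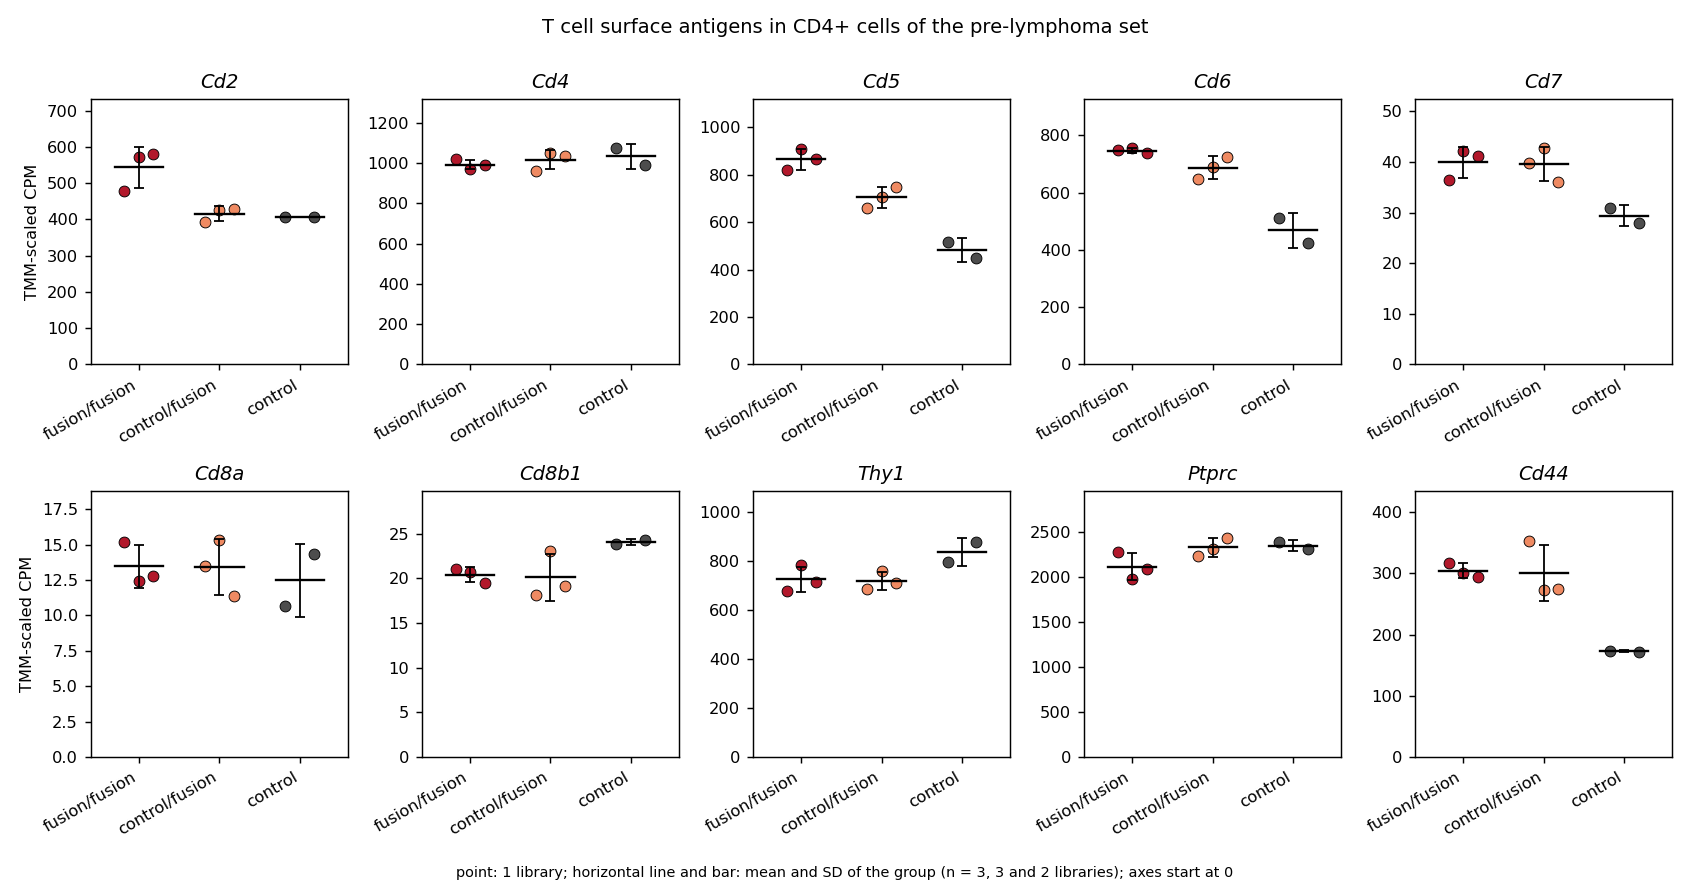
TMM-scaled CPM (y axis, from 0) of each antigen transcript in CD4+ cells of the pre-lymphoma set, with a point per library and the mean and SD of fusion/fusion (n = 3), control/fusion (n = 3) and control (n = 2) libraries. Cd5 stands at 818 to 908 CPM in fusion/fusion, 657 to 748 CPM in control/fusion and 447 to 518 CPM in control libraries, while Cd4 and Ptprc overlap or nearly meet across groups.

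Cd5, a brake on T cell receptor signals, had 818, 908 and 867 CPM in fusion/fusion cells, 657, 706 and 748 CPM in control/fusion cells and 518 and 447 CPM in controls. The 3 groups stood in separate ranges, with fusion/fusion highest. Its log2 fold change over control was 0.84 ± 0.09 in fusion/fusion cells (SE, edgeR adjusted p = 6.0e-05) and 0.55 ± 0.09 in control/fusion cells (adjusted p = 0.00294). Between the pre-lymphoma groups Cd5 was higher in fusion/fusion cells by 0.30 ± 0.08 (edgeR adjusted p = 0.0252), a call that was lost without control/fusion library TA020 (0.25, adjusted p = 0.0937) or TA021 (0.30, 0.0724), or fusion/fusion library TA024 (0.26, 0.0887) or TA025 (0.30, 0.0742).

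Cd6, the relative of Cd5 that binds ALCAM, had 748, 756 and 738 CPM in fusion/fusion cells, 647, 691 and 726 CPM in control/fusion cells and 512 and 426 CPM in controls. Every fusion library lay above both controls, and the fusion/fusion libraries lay above the control/fusion ones by a narrow margin. The log2 fold change over control was 0.67 ± 0.09 in fusion/fusion cells (edgeR adjusted p = 2.0e-04) and 0.55 ± 0.09 in control/fusion cells (adjusted p = 0.0026). The step between the pre-lymphoma groups did not pass (0.12 ± 0.08, adjusted p = 0.317).

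Cd44, the hyaluronan receptor, had 318, 300.4 and 294 CPM in fusion/fusion cells, 353, 273 and 274 CPM in control/fusion cells and 174 and 172 CPM in controls. Controls lay well below both fusion groups, which overlapped each other. Its log2 fold change over control was 0.82 ± 0.11 in fusion/fusion cells (edgeR adjusted p = 2.1e-04) and 0.79 ± 0.11 in control/fusion cells (adjusted p = 0.00124). In control/fusion cells this was the largest change among the 10 antigens.

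Cd7, a small immunoglobulin family receptor, had 36.5, 42.2 and 41.1 CPM in fusion/fusion cells, 39.7, 42.7 and 36.1 CPM in control/fusion cells and 30.9 and 27.9 CPM in controls. The fusion groups overlapped each other and lay above both controls. The log2 fold change was 0.44 ± 0.10 in fusion/fusion cells (edgeR adjusted p = 0.00456) and 0.42 ± 0.10 in control/fusion cells (adjusted p = 0.0143). Without control library TA019 these calls were lost, at 0.36 (adjusted p = 0.0513) and 0.35 (adjusted p = 0.129), where the lone control left is assumed to vary like the fusion groups. The antisense gene Gm11775 overlaps 122 of the 1133 exonic bases of Cd7. The strand setting is not given, so reads in this stretch may be missing from both counts or credited to the wrong gene. Gm11775 reached at most 23 counts in any library.

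Cd2, the adhesion receptor for CD48, had 478, 573 and 579 CPM in fusion/fusion cells, 392, 427 and 429 CPM in control/fusion cells and 406 and 407 CPM in controls. Fusion/fusion libraries stood above all others, and control/fusion libraries lay on both sides of the controls. Cd2 passed against control in fusion/fusion cells (log2 fold change 0.42 ± 0.09, edgeR adjusted p = 0.0036) and not in control/fusion cells (0.03 ± 0.09, adjusted p = 0.823). It also passed between fusion/fusion and control/fusion cells (0.39 ± 0.08, adjusted p = 0.00935). Cd2 and Cd5 were the 2 antigens of 10 that passed between these groups, both higher, where 18.9% of all genes did and 9.59% were higher.

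The coreceptor transcripts, Thy1 and Ptprc did not pass in either group. Cd4 averaged 992 ± 24.6 CPM in fusion/fusion, 1016 ± 47.1 CPM in control/fusion (SD, n = 3 each) and 1032 ± 60.0 CPM in control libraries (n = 2), with overlapping values. Cd8a averaged 13.5, 13.4 and 12.5 CPM in the same order and also overlapped. Thy1 had 679 to 782 CPM in fusion/fusion, 686 to 759 CPM in control/fusion and 797 to 876 CPM in control libraries, so all 6 fusion libraries lay below both controls, with log2 fold changes of −0.21 ± 0.08 (edgeR adjusted p = 0.062) and −0.22 ± 0.08 (adjusted p = 0.0832). With DESeq2 Thy1 passed as lower in both groups (adjusted p = 0.033 and 0.043). Cd8b1 lay lower in the same way (−0.24 ± 0.11, edgeR adjusted p = 0.101, and −0.26 ± 0.11, adjusted p = 0.113), and Ptprc, the CD45 phosphatase, overlapped its controls in control/fusion cells only (−0.15 ± 0.08 in fusion/fusion, adjusted p = 0.154, and −0.01 ± 0.08, adjusted p = 0.923). Separate ranges were found for 8 antigens in fusion/fusion and 6 in control/fusion cells, against 65.8% and 52.6% of all genes.

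Genes around the antigens were called in both directions, to be read against 23.8% of all genes higher and 22.0% lower in fusion/fusion cells and 11.6% higher and 8.70% lower in control/fusion cells. Of 7 genes of the CD3 complex, fusion/fusion cells had 1 higher (Cd3g, log2 fold change 0.27 ± 0.07, edgeR adjusted p = 0.0102) and 1 lower, Cd247, which encodes the zeta signalling chain (−1.04 ± 0.08, adjusted p = 8.1e-06). In control/fusion cells 0 were higher and Cd247 was lower (−0.59 ± 0.08, adjusted p = 0.00103), and Cd3e did not pass in either group. Among 18 other T cell surface antigens, 5 were higher and 5 lower in each group, led by the costimulatory receptor Icos (1.49 ± 0.12 in fusion/fusion and 0.87 ± 0.12 in control/fusion cells) and Cd160 (1.17 ± 0.12 and 0.88 ± 0.12). Of 16 tested kinases, phosphatases and adaptors that act with the antigens, 4 were higher and 6 lower in fusion/fusion cells and 3 higher and 4 lower in control/fusion cells. The adaptor Grap2 was lower in both (−1.09 ± 0.08 and −0.49 ± 0.08).

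Of 13 tested ligands of the antigens, 5 were higher in fusion/fusion and 8 in control/fusion cells, and 0 were lower. The galectins Lgals1 (1.92 ± 0.12, edgeR adjusted p = 2.7e-06) and Lgals3 (1.71 ± 0.21, adjusted p = 1.3e-04) led in fusion/fusion cells, and Cdcp1, a ligand of CD6 (0.98 ± 0.27, adjusted p = 0.0305), and Itgax (0.96 ± 0.14, adjusted p = 0.00189) in control/fusion cells. Cd48, the ligand of CD2, and Alcam, that of CD6, are named after their values were seen. Cd48 was higher by 0.43 ± 0.07 in fusion/fusion (edgeR adjusted p = 4.9e-04) and 0.24 ± 0.07 in control/fusion cells (adjusted p = 0.027), and Alcam by 0.73 ± 0.11 (adjusted p = 3.7e-04) and 0.52 ± 0.11 (adjusted p = 0.00799). Of 16 regulators of Cd4 and Cd8 transcription, 3 were higher and 8 lower in fusion/fusion cells and 2 higher and 6 lower in control/fusion cells. The transcription factor Myb was higher in control/fusion cells (0.95), and the chromatin organiser Satb1 was lower in both (−1.25 ± 0.08 and −0.77 ± 0.08), as was Lef1 in fusion/fusion cells (−1.34 ± 0.08).

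Markers of other cell types moved with the same groups, and their part in these results was not tested. Summed CPM of 8 dendritic cell markers was 189 to 207 in fusion/fusion, 186 to 260 in control/fusion and 80.8 to 111 in control libraries, and 4 and 7 of the 8 were higher. Summed CPM of 8 erythroid markers was 351 to 408, 180 to 571 and 95.9 to 154 in the same order, with 7 of 8 higher in each fusion group. B cell markers summed to 510 to 602, 471 to 583 and 577 to 694 CPM, and 3 of 10 were lower in each. Macrophage and monocyte markers summed to 2478 to 3235, 2477 to 5030 and 1973 to 2468 CPM. Of these 12, 2 were higher and 1 lower in fusion/fusion cells, and 2 were higher in control/fusion cells. Plasma cell markers were higher in fusion/fusion cells (5 of 6, summing to 1285 to 1476 CPM, against 437 to 668 CPM in controls), as were NK cell markers (3 of 5, with all 6 summing to 48.7 to 53.4 CPM, against 25.1 to 28.1 CPM in controls). Of 7 tested stromal and endothelial markers, 4 were higher and 1 lower in fusion/fusion cells, and 3 were higher in control/fusion cells. Among all these markers, 1 of 8 stromal and endothelial genes was at 0 in both controls. Such counts stand against 23.8% of all genes higher and 22.0% lower in fusion/fusion cells. In control/fusion cells the shares were 11.6% and 8.70%.

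In CD4+ cells of CD4-Cre tumor mice the antigens parted. Cd5 and Cd6 stood 2.33-fold and 2.35-fold above their control level and Cd2 stood higher too, while Cd7, Cd8a and Cd44 stood lower, with no overlap between tumor and control libraries for any of these 6. None of the 10 passed edgeR's quasi-likelihood test over 17841 genes, in which 0.157% of all genes passed, 0.0168% higher and 0.140% lower. At an unadjusted p under 0.05 there were 3 higher and 4 lower antigens, against 2699 of all genes in either direction. DESeq2 called 2 higher (Cd5 and Cd6) and 1 lower (Cd8a), against 1271 of all genes. Separate ranges were found for 17.4% of all genes. The count was 2 (Cd5 and Cd6, both higher) without tumor library VM645, where 80 of 17466 genes passed. It was 3 without tumor library VM98 (Cd5 higher, Cd7 and Cd8a lower), where 579 of 17371 genes passed.

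**Figure D2:**
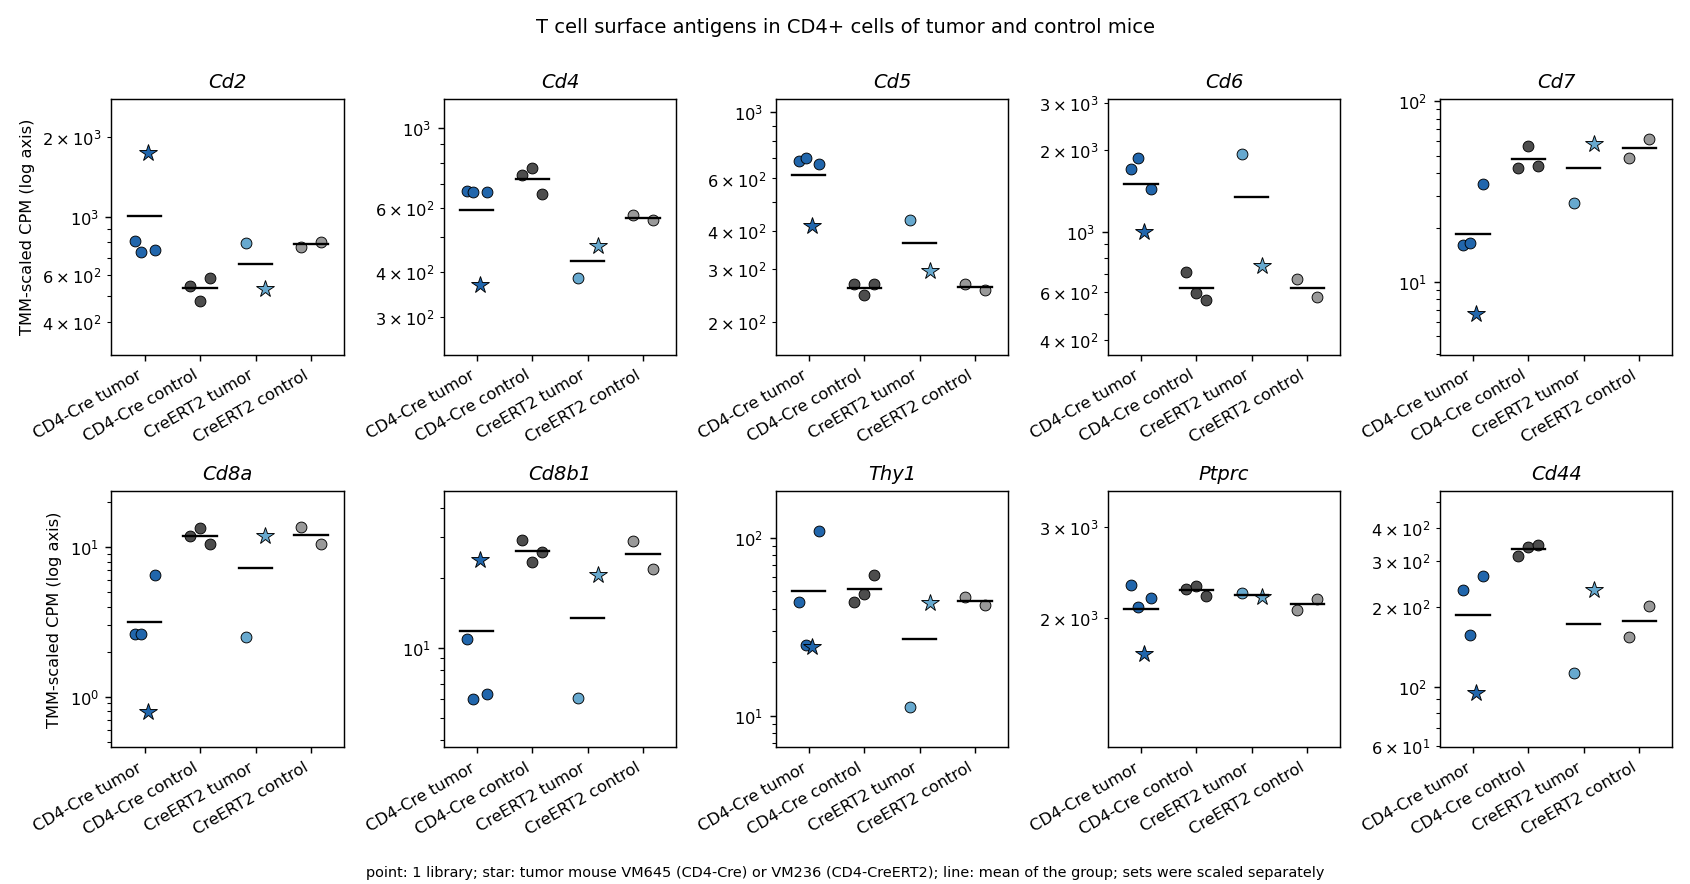
TMM-scaled CPM (y axis, log scale) of each antigen transcript in CD4+ cells, with a point per library and a line at the group mean, for CD4-Cre tumor (n = 4) and control (n = 3) and CD4-CreERT2 tumor (n = 2) and control (n = 2) libraries. Stars mark tumor mice VM645 and VM236. In the CD4-Cre set Cd6 stands at 998 to 1867 CPM in tumor and 563 to 712 CPM in control libraries, and VM236 lies nearer to the CD4-CreERT2 controls than the other tumor library does for Cd5, Cd6, Cd7, Cd8a, Cd8b1 and Thy1.

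Cd5 had 686, 700.2, 418 and 669 CPM in the CD4-Cre tumor libraries VM388, VM58, VM645 and VM98, against 266, 245 and 267 CPM in controls. Tumor libraries lay above all controls, with VM645 nearest to them. The log2 fold change was 1.22 ± 0.22 (SE, edgeR adjusted p = 0.0795), a 2.33-fold higher level, and ranged from 1.15 to 1.38 over 14 alternatives.

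Cd6 had 1708, 1867, 998 and 1442 CPM in the same tumor libraries and 712, 598 and 563 CPM in controls. Here too all tumor libraries stood above the controls and VM645 lowest among them. The log2 fold change was 1.23 ± 0.25 (edgeR adjusted p = 0.1). Cd2 had 812, 734, 1742 and 748 CPM in tumor and 549, 481 and 584 CPM in control libraries (0.87 ± 0.34, adjusted p = 0.28). VM645 was the library farthest above the rest for Cd2, and without it the change was 0.47 (adjusted p = 0.184).

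Cd7, the antigen lost most often in human T cell lymphoma, had 16.0, 16.5, 6.62 and 35.0 CPM in tumor and 42.9, 56.8 and 43.7 CPM in control libraries. All tumor libraries were below the controls, with VM98 closest to them. The log2 fold change was −1.40 ± 0.48 (edgeR adjusted p = 0.223), and −1.92 without VM98 (adjusted p = 0.0427). Cd44 had 232, 157, 94.6 and 264 CPM in tumor and 313, 339 and 343 CPM in control libraries (−0.86 ± 0.32, adjusted p = 0.267), again with VM645 lowest and VM98 highest among tumors.

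Cd8a, which also marks a subset of mouse dendritic cells, had 2.61, 2.64, 0.79 and 6.54 CPM in tumor and 11.9, 13.5 and 10.5 CPM in control libraries (log2 fold change −1.96 ± 0.61, edgeR adjusted p = 0.198). Cd8b1 had 10.9, 6.04, 23.9 and 6.33 CPM in tumor and 29.0, 23.5 and 25.8 CPM in control libraries (−1.18 ± 0.48, adjusted p = 0.295). VM645 lay within the control range for the beta chain and lowest of all for the alpha chain, with 697 counts of Cd8b1 and 23 of Cd8a. The other 3 tumor libraries had lower Cd8b1 than any control.

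Cd4 itself had 671, 664, 367 and 665 CPM in tumor and 743, 773 and 657 CPM in control libraries (−0.33 ± 0.24, edgeR adjusted p = 0.581). The tumor libraries other than VM645 lay in or next to the control range, and VM645 at the lowest level. Thy1 had 43.6, 25.0, 24.5 and 108 CPM in tumor and 43.4, 48.3 and 62.0 CPM in control libraries, so tumors lay both below and above the controls (−0.05 ± 0.52, adjusted p = 0.976). Ptprc had 2314, 2096, 1700 and 2185 CPM in tumor and 2272, 2308 and 2204 CPM in control libraries, and the groups overlapped (−0.16 ± 0.19, adjusted p = 0.757). Cd3e, the T cell receptor chain used below as a yardstick, had 394, 491, 687 and 331 CPM in tumor and 382, 346 and 375 CPM in control libraries (0.34 ± 0.26, adjusted p = 0.592).

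Of the other lists, 0 genes of the CD3 complex, the other T cell antigens, the kinases and adaptors, the ligands and the regulators passed in this comparison. Median log2 fold changes of these lists lay between 0.00 and 0.34, against 0.06 over all genes. Genes of non-T cells were the exceptions, with 2 of 12 macrophage and monocyte markers lower, Slc40a1 (−5.70 ± 0.56, edgeR adjusted p = 0.0167) and Cd163 (−5.19 ± 0.48, adjusted p = 0.0138), and 1 of 10 B cell markers, Cr2 (−4.43 ± 0.52, adjusted p = 0.0335). Macrophage and monocyte markers summed to 473 to 4225 CPM in tumor and 4785 to 6981 CPM in control libraries, dendritic cell markers to 29.1 to 135 and at least 379 CPM, and B cell markers to 68.8 to 903 and 854 to 1383 CPM. Their part in the levels of the antigens was not tested.

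In the CD4-CreERT2 set the pair of tumor libraries did not behave alike. By counts of Xist and the Y-linked Ddx3y, VM231 was male, and VM236 and the control libraries were female. A difference between these tumor libraries therefore cannot be told apart from one of sex. VM231 had high Cd5 and Cd6 and low Cd7, Cd8a, Cd8b1 and Thy1. VM236 lay nearer to the controls for these, and had lower Cd2 than they did. None of the 10 antigens passed edgeR's quasi-likelihood test, and DESeq2 called 0 of them and 272 of all genes. At an unadjusted p under 0.05 there were 0 antigens; of all 17341 genes 0% passed and 896 had an unadjusted p under 0.05. Without VM236 the fit called 2 higher and 4 lower, and 3254 of 18263 genes, but VM231 is then a lone library whose spread is assumed to equal that of the controls.

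Cd6 had 1942 CPM in tumor library VM231 and 747 CPM in VM236, against 670 and 576 CPM in controls (log2 fold change 1.11 ± 0.50, edgeR adjusted p = 1). Cd5 had 438 and 296 CPM in these tumor libraries and 268 and 255 CPM in controls (0.50 ± 0.30, adjusted p = 1). Both tumor libraries lay above the controls for Cd5 and Cd6, VM236 only narrowly. Cd4 had 385 and 471 CPM in tumor and 574 and 555 CPM in control libraries, below them in both (−0.39 ± 0.28, adjusted p = 1).

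Thy1 had 11.1 CPM in VM231 and 42.8 CPM in VM236, against 46.3 and 41.7 CPM in controls, so only VM231 was low. Cd7 had 27.5 and 57.9 CPM in tumor and 48.6 and 61.5 CPM in control libraries. Cd8a had 2.50 and 11.9 CPM in tumor and 13.7 and 10.5 CPM in control libraries, and Cd8b1 had 6.08 and 20.7 CPM in tumor and 28.9 and 21.9 CPM in controls. Of these, Cd8b1 was below both controls in both tumor libraries, as Cd4 was. Cd2 had 792 CPM in VM231 and 532 CPM in VM236, against 769 and 801 CPM in controls, so here VM236 alone was low. Cd44 (113 to 232 CPM in tumor and 155 to 202 CPM in control libraries) overlapped, and Ptprc (2197 to 2229 and 2067 to 2176 CPM) was slightly higher in both tumor libraries (0.07 ± 0.28, edgeR adjusted p = 1). Separate ranges were found for 5 antigens and for 30.2% of all genes. B cell markers summed to 454 to 1465 CPM in tumor and 2834 to 2993 CPM in control libraries, and macrophage and monocyte markers to 3490 to 4843 and 547 to 1081 CPM. Neutrophil markers summed to 67.1 to 5236 CPM in tumor and 37.5 to 54.8 CPM in control libraries, erythroid markers to 117 to 132 and at most 37.0 CPM, and dendritic cell markers to 229 to 506 and 108 to 182 CPM. Their part was not tested.

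**Figure D3:**
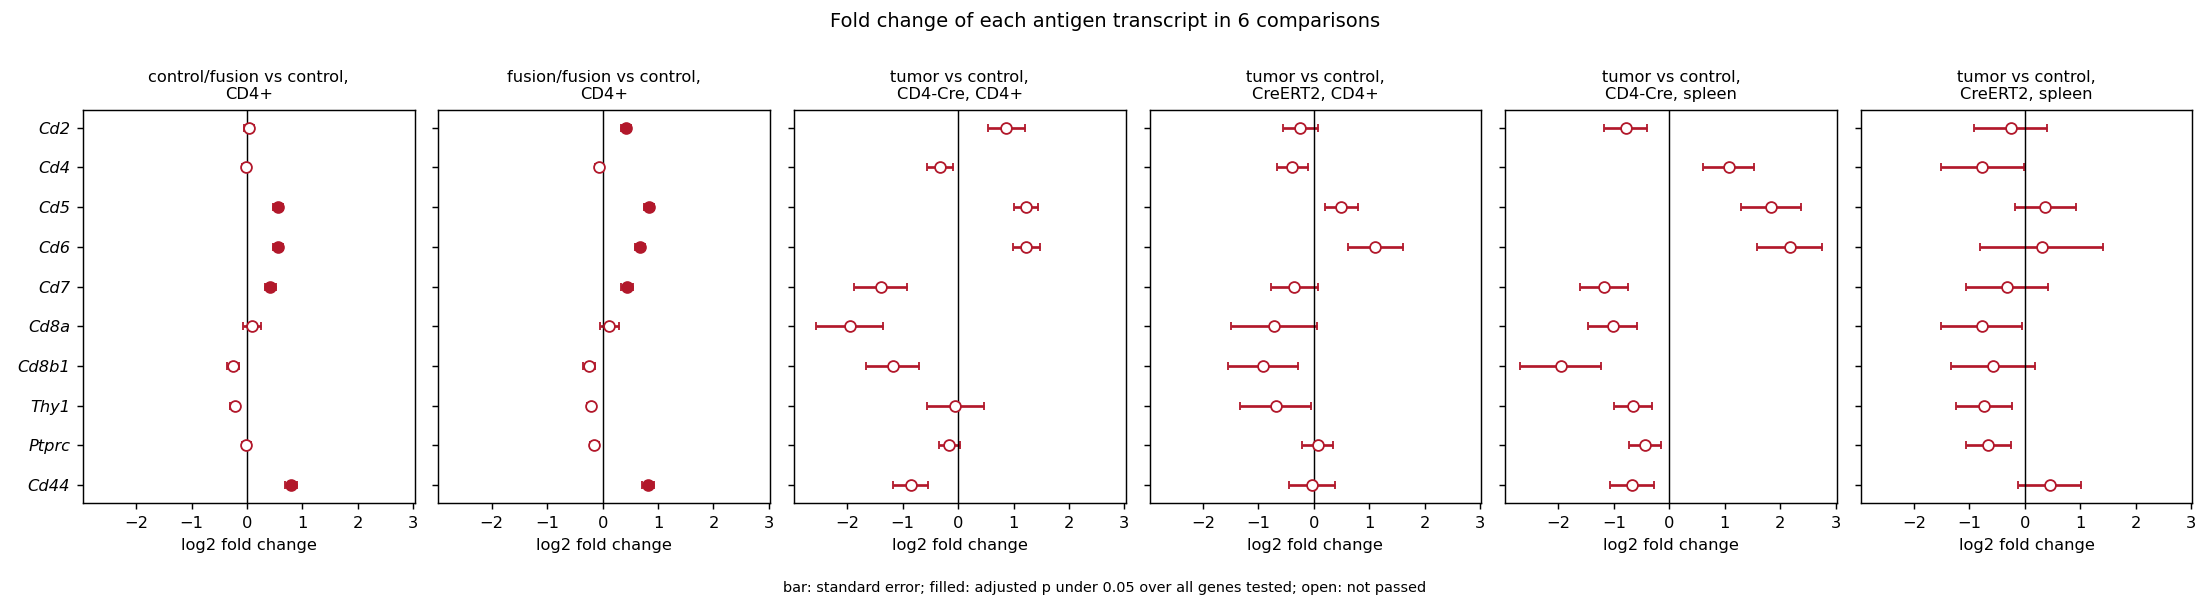
Log2 fold change with its standard error (x axis) of each antigen transcript (y axis) in 6 comparisons, with filled symbols where the adjusted p was under 0.05 over all genes tested. Filled symbols occur in the pre-lymphoma comparisons, 5 for fusion/fusion and 4 for control/fusion, and the standard errors of the tumor comparisons are wider, up to 1.11 for Cd6 in CD4-CreERT2 spleen.

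Whole spleen holds many cell types, so the level of a T cell transcript there depends on the share of T cells as well. Spleens of CD4-Cre tumor mice had higher Cd4, Cd5 and Cd6 and lower Cd7, Cd8b1 and Ptprc than controls, with no overlap, though 0 of the 10 antigens passed edgeR's quasi-likelihood test (0% of 17050 genes passed). At an unadjusted p under 0.05 there were 2 higher and 2 lower antigens, against 2373 of all genes. DESeq2 called Cd5 and Cd6 higher, and 740 of all genes. Without tumor spleen VM98 edgeR called 1, Cd8b1 lower, and 608 of 18098 genes. Separate ranges were found for 22.4% of all genes.

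Cd6 had 180, 702 and 203 CPM in tumor spleens VM388, VM58 and VM98, against 93.5, 76.1 and 76.9 CPM in controls (log2 fold change 2.17 ± 0.58, edgeR adjusted p = 0.242). Cd5 had 75.0, 254 and 73.1 CPM in tumor spleens and 37.8, 43.4 and 34.2 CPM in controls (1.84 ± 0.54, adjusted p = 0.264). Cd4 had 85.5, 215 and 65.3 CPM in tumor spleens and 57.2, 57.6 and 63.7 CPM in controls (1.07 ± 0.46, adjusted p = 0.369). VM58 was the highest for each of these, and VM98 lay close to the controls for Cd4. Without VM58 the log2 fold changes were 1.23 for Cd6, 0.96 for Cd5 and 0.36 for Cd4, and still not past the threshold (adjusted p = 0.133, 0.134 and 0.39 in edgeR).

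Cd7 had 9.30, 18.3 and 33.8 CPM in tumor spleens and 52.2, 42.9 and 43.8 CPM in controls (−1.18 ± 0.44, edgeR adjusted p = 0.32). Cd8b1 had 13.1, 13.9 and 72.2 CPM in tumor spleens and 197, 96.4 and 87.4 CPM in controls (−1.96 ± 0.73, adjusted p = 0.316). Ptprc had 1208, 1686 and 1277 CPM in tumor spleens and 1986, 1966 and 1749 CPM in controls (−0.44 ± 0.29, adjusted p = 0.53). VM98 lay nearest to the controls for Cd7 and Cd8b1. Cd8a, which in spleen marks CD8 T cells above all, had 20.5, 24.4 and 57.3 CPM in tumor spleens and 95.5, 57.9 and 52.4 CPM in controls. Cd44 had 201, 140.2 and 432 CPM in tumor spleens and 403, 445 and 376 CPM in controls. VM98 lay within the control range for both, and the other tumor spleens below it. The remaining antigens overlapped too, with log2 fold changes of −0.79 ± 0.38 for Cd2, −1.02 ± 0.44 for Cd8a, −0.65 ± 0.34 for Thy1 and −0.67 ± 0.40 for Cd44. Cd3e had 56.6, 176 and 59.0 CPM in tumor spleens and 95.1, 67.8 and 80.8 CPM in controls, and the groups overlapped. B cell markers summed to 1804 to 6255 CPM in tumor spleens and 6855 to 7734 CPM in controls, NK cell markers to 25.2 to 95.6 and 106 to 227 CPM, and dendritic cell markers to 114 to 206 and 274 to 333 CPM. These sums did not overlap, and their part in the levels of the antigens was not tested.

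Set against Cd3e, Cd4, Cd5 and Cd6 stood higher in CD4-Cre tumor spleens and Cd2 lower. The ratio of Cd6 to Cd3e counts was 3.18, 3.98 and 3.44 in tumor spleens and 0.983, 1.12 and 0.952 in controls. For Cd5 it was 1.32, 1.44 and 1.24 in tumor spleens, against 0.397, 0.640 and 0.423 in controls. Relative to this T cell transcript the 3 tumor spleens were close to each other for both genes and far from the controls, although VM58 had much higher levels of both than the others. Cd4 over Cd3e was 1.51, 1.22 and 1.11 in tumor spleens and 0.602, 0.849 and 0.789 in controls, and Cd2 over Cd3e was 3.13, 1.88 and 2.56 in tumor spleens and 5.22, 4.50 and 4.41 in controls. Cd2 over Cd3e was not lower in CD4+ cells of this set, with means of 2.09 in tumor and 1.46 in control libraries, which overlapped. Control spleens averaged 4.71, and the part of cells other than T cells in this ratio was not tested.

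The ratios of Cd7, Cd8a, Cd8b1 and Thy1 split the tumor spleens instead. Cd7 over Cd3e was 0.164, 0.104 and 0.573 in tumor spleens VM388, VM58 and VM98, against 0.549, 0.632 and 0.542 in controls. Cd8b1 over Cd3e was 0.231, 0.0788 and 1.22 in tumor spleens and 2.08, 1.42 and 1.08 in controls. Thy1 over Cd3e was 0.139, 0.0708 and 0.267 in tumor spleens and 0.255, 0.227 and 0.213 in controls. VM388 and VM58 lay below all controls for these genes, and VM98 within or next to the control range.

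**Figure D4:**
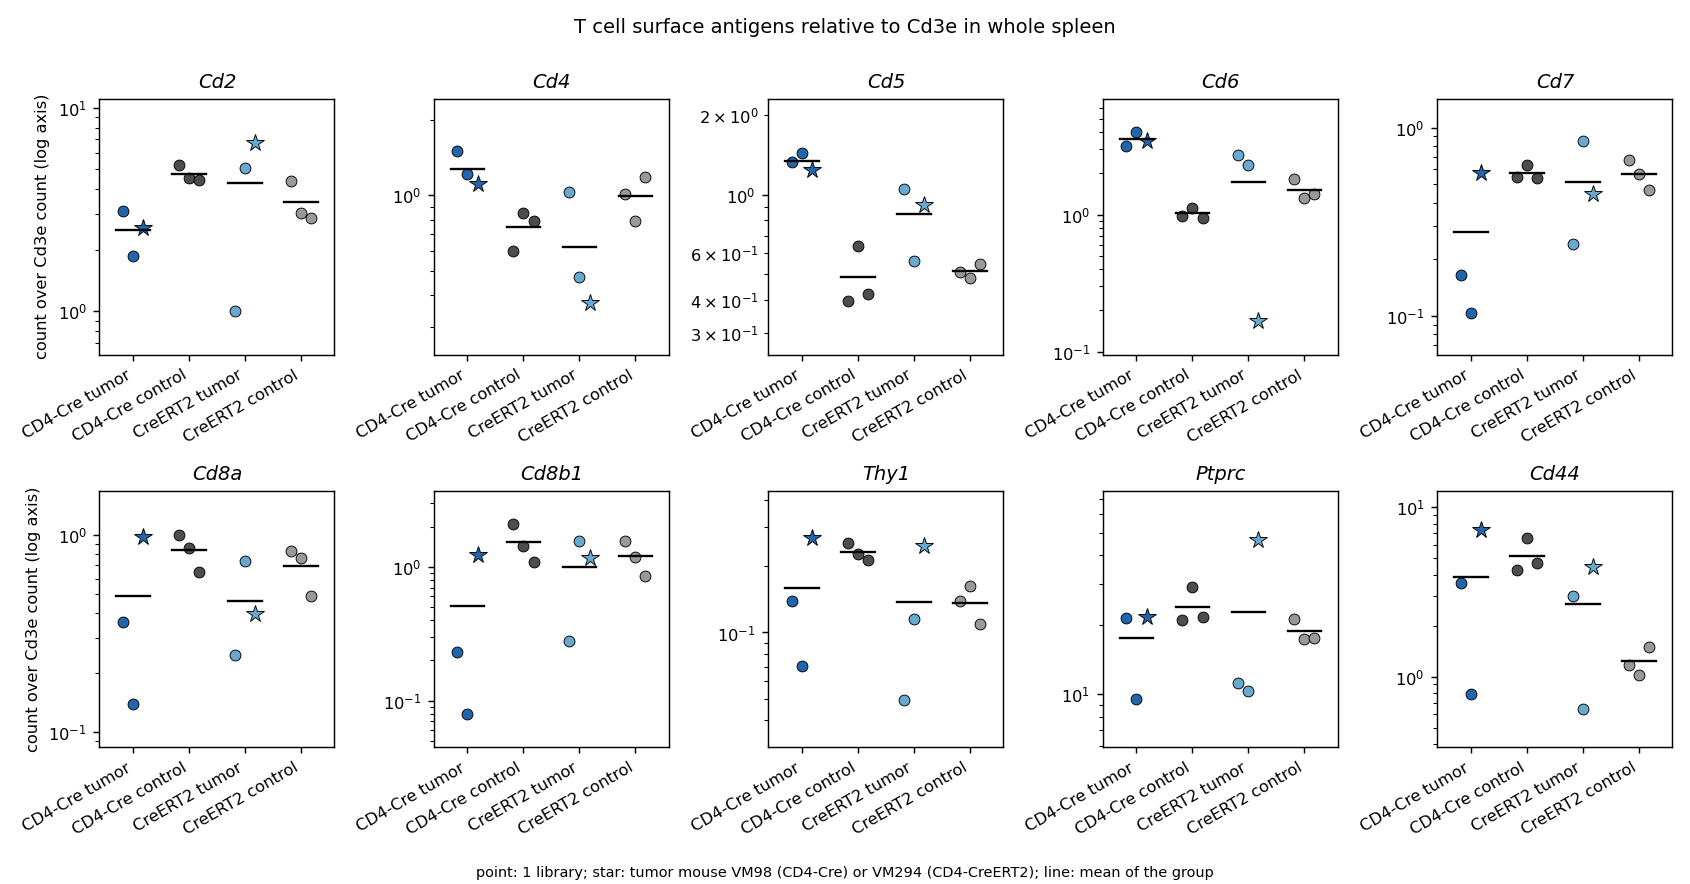
Count of each antigen transcript over the Cd3e count of the library (y axis, log scale) in whole spleen, with a point per library and a line at the group mean, for CD4-Cre and CD4-CreERT2 tumor and control mice (n = 3 each). Stars mark tumor mice VM98 and VM294. Cd5 and Cd6 over Cd3e lie above the controls in all 3 CD4-Cre tumor spleens, and VM294 is far below the rest for Cd6.

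The ratios of Cd4, Cd5, Cd6 and Cd2 to Cd3e each gave an exact two-sided permutation p = 0.1, the smallest that 3 against 3 can give. In edgeR fits with Cd3e as the library size, the log2 fold change of the ratio was 1.79 ± 0.66 for Cd6, 1.45 ± 0.59 for Cd5, 0.78 ± 0.59 for Cd4 and −0.90 ± 0.67 for Cd2, against 0.14 for the median of all genes under this scaling. That median was −0.14 without tumor spleen VM388, 0.50 without VM58, −0.11 without VM98 and 0.42 with the summed Cd3d, Cd3e and Cd3g counts as library size. None of the 10 passed (0% of 17049 genes did), and 2 had an unadjusted p under 0.05, Cd5 and Cd6. Separate ranges were found for 8.33% of all genes. Without VM98 the ratio of Cd8b1 was called lower (−3.31, adjusted p = 0.0111), in a fit that called 755 of 18097 genes. The ratio between CD3 chains also differed: Cd3d over Cd3e was 1.44, 0.985 and 1.68 in tumor spleens and 1.83, 1.89 and 1.75 in controls, so in tumor spleens Cd3d was lower relative to Cd3e.

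Spleens of CD4-CreERT2 tumor mice differed widely among themselves for most antigens. By Xist and Ddx3y counts VM231 and VM294 were male, and VM236 and the controls were female. Sex cannot be told apart from other differences between these tumor mice. None of the 10 antigens passed edgeR's quasi-likelihood test, with or without VM294, while 0% of 16163 genes passed. DESeq2 called 0 of the antigens and 1818 of all genes. At an unadjusted p under 0.05 there were 0 antigens, against 3241 of all genes. Ptprc alone had separate ranges, 1347, 1409 and 1266 CPM in tumor spleens VM231, VM236 and VM294 and 2353, 2165 and 1943 CPM in controls (log2 fold change −0.66 ± 0.41, adjusted p = 0.397), where 34.5% of all genes had such ranges. Cd6 had 326, 314 and 4.54 CPM in tumor spleens and 203, 165 and 156 CPM in controls (0.30 ± 1.11, edgeR adjusted p = 0.896). A pair of tumor spleens was thus above all controls and VM294 far below.

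Cd5 had 127, 76.4 and 24.9 CPM in tumor spleens and 56.6, 60.8 and 60.5 CPM in controls (0.37 ± 0.55, edgeR adjusted p = 0.725). Cd4 had 124, 64.4 and 10.2 CPM in tumor spleens and 112, 98.7 and 131 CPM in controls. VM294 was the lowest of the CD4-CreERT2 spleens for Cd4, Cd5, Cd7 and Cd8a, with Cd7 at 12.2 CPM and Cd8a at 10.8 CPM against 51.7 to 74.7 CPM and 54.4 to 95.0 CPM in controls. VM236 had 116 CPM of Cd7 and 686 CPM of Cd2, above every control. Cd8b1 had 33.5, 213 and 31.7 CPM in tumor spleens and 171, 149 and 94.7 CPM in controls. Cd44 had 358, 88.1 and 120.1 CPM in tumor spleens and 129, 128 and 166 CPM in controls (0.45 ± 0.57, edgeR adjusted p = 0.677). For Cd8b1 VM236 lay above and the other tumor spleens below the controls, and for Cd44 VM231 lay above and the others below. Thy1 had 5.92, 15.7 and 6.75 CPM in tumor spleens and 15.3, 20.3 and 12.1 CPM in controls (−0.74 ± 0.50, adjusted p = 0.426), with VM236 again among the controls.

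Relative to Cd3e, Cd5 was 1.05, 0.562 and 0.912 in the CD4-CreERT2 tumor spleens and 0.511, 0.486 and 0.546 in controls, higher in all 3 (log2 fold change 0.71 ± 0.54, edgeR adjusted p = 0.435, and an exact permutation p = 0.1). Under this scaling the median of all genes was itself 0.74 higher in tumor spleens. Without VM294 that median was −0.13 and the change of Cd5 was 0.65 (adjusted p = 0.247 in edgeR). In VM294 Cd3e had 27.3 CPM, Cd3d 133 CPM and Cd3g 197 CPM, against 111 to 125, 125 to 174 and 143 to 211 CPM in controls. Relative to the summed Cd3d, Cd3e and Cd3g, Cd5 was 0.328, 0.112 and 0.0697 in tumor spleens and 0.114, 0.130 and 0.160 in controls, so VM231 alone lay above the controls. The ratio of Cd6 was 2.71, 2.31 and 0.167 in tumor spleens and 1.83, 1.32 and 1.41 in controls. None of the 10 ratios passed, 0 had an unadjusted p under 0.05, 0% of 16162 genes passed, and 24.9% had separate ranges. Neutrophil markers summed to 2307 to 79898 CPM in these tumor spleens and 312 to 718 CPM in controls, and B cell markers to 1092 to 6342 and 9522 to 9836 CPM. Their part in the levels was not tested.

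CD4+ libraries were set against whole spleens of the same sets, which checks the labelled cell type. Since the cells were chosen as CD4+ T cells, higher Cd4 and lower Cd8a and Cd8b1 largely follow from that choice. Counts of passed antigens between CD4+ cells and spleen describe the choice of cells and are no result about the antigens. In CD4-Cre controls Cd4 had 724 ± 60.3 CPM in CD4+ cells and 59.5 ± 3.65 CPM in spleen (SD, n = 3 each), a 12.1-fold higher level (log2 fold change 3.60 ± 0.13, edgeR adjusted p = 4.0e-05). Cd6 (2.92 ± 0.16), Cd5 (2.75 ± 0.13) and Thy1 (1.43 ± 0.22) were also higher, and Cd8a (−2.53 ± 0.25) and Cd8b1 (−2.29 ± 0.32) lower, so that 6 of 10 passed, 4 higher and 2 lower, against 25.7% of all genes, 12.9% higher and 12.8% lower. Cd7 did not pass and was similar in level, 47.8 ± 7.79 CPM in CD4+ cells and 46.3 ± 5.15 CPM in spleen.

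In CD4-CreERT2 controls 7 of 10 passed, 5 higher and 2 lower, against 21.6% of all genes, 10.3% higher and 11.3% lower. Cd4 (2.33 ± 0.15), Cd5 (2.17 ± 0.12), Cd6 (1.86 ± 0.15), Thy1 (1.49 ± 0.21) and Cd2 (1.02 ± 0.17) were higher in CD4+ cells than in spleen, and Cd8a (−2.71 ± 0.26) and Cd8b1 (−2.42 ± 0.26) lower. For Cd2 the level was 785 ± 22.7 CPM in CD4+ cells (SD, n = 2) and 395 ± 83.2 CPM in spleen (n = 3). Cd7 and Ptprc did not pass in either control comparison. In the CD4-Cre controls Cd2 passed as higher (0.50 ± 0.13, edgeR adjusted p = 0.0251) and Cd44 as lower (−0.30 ± 0.10, adjusted p = 0.049) with the mouse as a block. When tumor libraries shared the estimate of spread, 3 antigens passed in the CD4-Cre controls and 0 in the CD4-CreERT2 controls.

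In tumor mice the same comparison gave 0 passed antigens in both sets, with 0% of 17534 genes (CD4-Cre) and 0% of 17467 genes (CD4-CreERT2) passing in edgeR. In the CD4-Cre tumors 5 antigens were higher and 1 lower at an unadjusted p under 0.05, against 2490 of all genes. DESeq2 called 5 higher and 1 lower, against 1238 of all genes. Cd2 had 1009 ± 490 CPM in CD4+ cells (n = 4) and 220 ± 97.6 CPM in spleen (SD, n = 3). In the CD4-CreERT2 tumors 2 were higher and 2 lower at an unadjusted p under 0.05, against 672 of all genes, and DESeq2 called 0 of the antigens and 71 of all genes. With the mouse as a block, on mice that gave both tissues, Cd8a (−3.31 ± 0.73, edgeR adjusted p = 0.00772) and Cd8b1 (−2.91 ± 0.71, adjusted p = 0.0219) passed as lower in CD4+ cells, in a fit that called 192 genes. These mice were VM231 and VM236 alone, and the libraries of VM231 did not deviate together (correlation −0.09). In CD4-Cre tumors the fit with a mouse block called 0 antigens and 11 of 17167 genes.

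Whether the tumor effect differed between tissues or Cre lines was tested by interaction contrasts. The contrast between tissues took CD4+ and spleen libraries of 1 mouse as independent. With the mouse as a block it called 0 antigens and 0 of 19333 genes. The tumor effect in CD4+ cells minus that in spleen, in the CD4-Cre set, was 1.72 ± 0.53 for Cd2 (unadjusted p = 0.00672 and adjusted p = 0.675, edgeR) and −1.33 ± 0.52 for Cd4 (unadjusted p = 0.0244 and adjusted p = 0.676), and none of the 10 passed (0% of 19503 genes did). Between Cre lines none of the 10 passed and 0 had an unadjusted p under 0.05, in spleen (0.0450% of 17784 genes passed) or in CD4+ cells (0.00511% of 19581 genes). Of all genes, 3372 in spleen and 1524 in CD4+ cells had an unadjusted p under 0.05 between Cre lines, and 1428 did between tissues. DESeq2 called 0 antigens in each of these 3 contrasts, against 1112, 350 and 51 of all genes. For Cd5 the tumor effect in CD4-CreERT2 minus that in CD4-Cre mice was −1.46 ± 0.78 in spleen (edgeR adjusted p = 0.326) and −0.71 ± 0.36 in CD4+ cells (adjusted p = 0.708).

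Across the 19 CD4+ libraries, after the mean of each set was taken off, the antigens fell into a few patterns. Cd5 and Cd6 had a Pearson r of 0.93, and Cd7 had 0.94 with Cd8a and 0.89 with Cd44. Cd6 and Cd8b1 had −0.88, and Cd2 and Ptprc −0.82. These are descriptions over libraries that share sets and scaling. Group means were not taken off, so differences between tumor or fusion and control libraries enter these values, as do single libraries that stand apart. CD4+ libraries also held RNA of other cell types, and its part in these values was not tested. Among 9261 genes, those most like Cd5 were Cpd and Capns1 (r = 0.94 and 0.93) and those most like Cd6 were Plcb4 and Ripk3 (0.94 each). Slamf7 and Slc35c2 were most like Cd7 (0.96 each), H2-Eb2 and Klrd1 most like Cd8a (0.97 and 0.96), and Slc35c2 and Epsti1 most like Cd44 (0.92 and 0.91). Dut and Larp7 were most like Cd2 (0.96 and 0.95), H2-DMb2 and Ebf1 most like Cd4 (0.96 each), and Cyp51 and Ppp3r1 most like Cd8b1 (0.91 each). For Thy1 they were Itgb7 and Rtn4rl1 (0.95 and 0.94), and for Ptprc Cep120 and Gpkow (0.89 each).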

How the data were processed

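The deposited tables hold raw gene counts. The submitters' processing notes name HISAT2 2.1.0 and HTSeq 0.5.4 for all 31 libraries, with mm10 for 21 and mm10 and GRCm38 for 10. Annotation release and strand setting are not given in the sources used here. Tables of the CD4-CreERT2 set have another layout, with Ensembl identifiers, coordinates and gene lengths, so counting may have differed from the other sets. Contrasts between Cre lines span both layouts. Ensembl identifiers of the CD4-CreERT2 tables were mapped to symbols with a separate reference list of gene names. Reads assigned to no gene were left out (27.2 to 31.9% in the pre-lymphoma and 32.7 to 46.0% in the CD4-Cre libraries). Each comparison was fitted on all genes kept by filterByExpr with edgeR 4.0.16 (TMM, quasi-likelihood test, R 4.3.3) and Benjamini-Hochberg adjustment at 0.05. Ratios used the Cd3e count as library size. DESeq2 1.42.0, other scalings, no filter and leaving out each library were alternatives. So were a term for sex between tumor and control and a mouse block between tissues. The fits were tested on simulated data. Libraries labelled with different mice were taken as separate animals. CD4+ and spleen libraries of 1 mouse are paired by the mouse, and their deviations from group means correlated at 0.38 to 0.60, except VM231 at −0.09. The main fits did not use this pairing. The antigens and gene lists were chosen with earlier results of these data known. The text names all 10 antigens and, of each list, at most 2 genes that passed with the largest change, except where stated.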

Additional observations from a re-analysis of the deposited data

Results flagged for a closer look

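The CD4+ tumor library VM645 of the CD4-Cre set stood apart from the other 3 tumor libraries for 3 antigens. It had 1742 CPM of Cd2, where the others had 734 to 811 CPM. It had 367 CPM of Cd4, where the others had 664 to 671 CPM, and 418 CPM of Cd5, where they had 669 to 700 CPM. In each case the gap to the nearest library was 0.89 or more of the range of the group, past the 95% limit of Dixon's test. This was looked for in 20 sets of values, the CPM and the ratio to Cd3e of 10 antigens over the same 4 libraries, which are not independent. Chance flags about 1 in 20, and the 3 values come from 1 library.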

How the results depend on the processing

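Counts of antigens that passed moved with the tool, the filter or 1 library in several comparisons, and the cause was not tested. In CD4-Cre CD4+ cells, tumor over control, none passed in edgeR, against 4 with no filter, 3 with DESeq2 and 0 to 3 when leaving out 1 library. In CD4-Cre spleens the count of 0 became 1 with no filter, 2 with DESeq2 and 0 to 1 when leaving out 1 library. In CD4-CreERT2 CD4+ cells it ran from 0 to 6. Between fusion/fusion and control/fusion cells it ran from 1 to 2, and for the CD4-Cre ratios to Cd3e from 0 to 1. Between CD4+ cells and spleen, fitting all groups of a set together gave 3 in CD4-Cre controls, 6 in CD4-Cre tumors and 0 in CD4-CreERT2 controls, and CD4-Cre tumors gave 6 with no filter and 6 with DESeq2. With the mouse as a replicate block, CD4-CreERT2 tumors gave 2, on VM231 and VM236 alone, and CD4-Cre tumors gave 0. CD4-Cre controls gave 8, against 6 without the block. For 69 antigen values the groups were separate, the test was passed or, in interactions, the unadjusted p was under 0.05. No alternative reversed their sign, but values chosen in this way could hardly reverse. Of 1156 values for the other 91, 102 had the other sign. The small groups and the spread among tumors limit what these tests can call.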
